A study of Mus musculus with 120 samples.

Results

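The cytotoxic effector genes described here were 9 genes, Gzma, Gzmb, Gzmk, Prf1, Nkg7, Ctsw, Ncr1, Fasl and Ifng, taken from the 55487 genes listed in both count tables by matching their symbols. They were measured by bulk RNA sequencing in 120 biopsies of immunological niches (INs), porous polymer scaffolds placed under the skin of mice, which fill with host cells and can be taken out and replaced. The mice were female NOD/ShiLtJ, a strain that develops autoimmune diabetes, and NOR/LtJ, a related strain that does not become diabetic and that served as the control. The 23 NOR samples came from 5 mice at 6, 10, 14, 18 or 22 weeks of age. The 39 nonprogressor samples came from NOD mice that stayed normoglycemic, 33 of them at 6 to 22 weeks of age and 6 labelled by 31, 38 or 108 days after implantation. The 58 progressor samples came from 10 NOD mice that became hyperglycemic, at 6 weeks of age, at 7, 5, 3 and 1 weeks before onset (−7, −5, −3 and −1 weeks) and at onset, so that a time before onset is not a fixed age. The labels name no transgene, drug or pooling of mice. Samples were sequenced in 2 batches: all NOR samples were in batch 1 and all −7 week samples in batch 2.

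Killer lymphocytes, that is natural killer (NK) cells and cytotoxic T cells, kill by releasing granules at the contact with a target cell. The granules hold perforin, encoded by Prf1, which opens membranes, and granzymes, proteases that enter the target and start its death. A second route uses Fas ligand on the cell surface, and both kinds of cell also secrete interferon gamma. In the diabetes of NOD mice, cytotoxic T cells take part in the loss of beta cells in the islets.

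Of the 9 genes, 4 are shown with the sequence before their RefSeq start (GRCm38.p6), because 3 of them, Gzma, Gzmb and Prf1, varied together from biopsy to biopsy and Ncr1 belonged to another set of members, as described further on. Capitals mark TGTGGT or its reverse complement ACCACA, the core letters of the RUNX motif, and TGANTCA, those of AP-1, searched on both strands; AGGTGTGA (T-box) and TGACGTCA (ATF/CREB) were searched as well and are in none of these 4 windows, and no match of one motif overlapped one of another in them. The windows are chr13:113100982-113101231 on the minus strand for Gzma, chr14:56262335-56262584 on the minus strand for Gzmb, chr10:61297586-61297832 on the plus strand for Prf1 and chr7:4337474-4337723 on the plus strand for Ncr1.
Gzma: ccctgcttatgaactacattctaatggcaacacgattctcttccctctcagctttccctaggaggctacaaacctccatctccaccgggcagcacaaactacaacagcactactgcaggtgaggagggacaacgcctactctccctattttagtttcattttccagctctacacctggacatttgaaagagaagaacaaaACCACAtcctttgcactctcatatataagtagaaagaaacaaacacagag
Gzmb: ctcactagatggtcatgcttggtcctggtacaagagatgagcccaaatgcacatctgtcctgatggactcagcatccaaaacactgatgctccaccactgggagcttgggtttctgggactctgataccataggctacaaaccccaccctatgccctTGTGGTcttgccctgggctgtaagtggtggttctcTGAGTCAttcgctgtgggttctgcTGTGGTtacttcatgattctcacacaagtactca
Prf1: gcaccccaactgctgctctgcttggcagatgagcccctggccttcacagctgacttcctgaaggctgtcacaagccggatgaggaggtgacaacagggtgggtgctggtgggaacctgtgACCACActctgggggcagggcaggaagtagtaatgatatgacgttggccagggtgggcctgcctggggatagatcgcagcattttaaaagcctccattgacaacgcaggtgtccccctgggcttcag
Ncr1: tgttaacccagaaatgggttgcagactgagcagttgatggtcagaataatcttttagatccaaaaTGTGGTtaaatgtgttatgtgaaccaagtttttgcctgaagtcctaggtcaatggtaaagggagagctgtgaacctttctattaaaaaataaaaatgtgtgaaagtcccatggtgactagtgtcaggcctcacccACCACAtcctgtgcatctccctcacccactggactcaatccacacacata

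The RUNX letters stand 50 bases before the start of Gzma, 93 and 34 before that of Gzmb, 130 before that of Prf1, and 185 and 50 before that of Ncr1. Of the 27025 genes with promoter windows of up to 250 bases, 14.2% hold the same letters in a window. The letters of AP-1 are in 6.87% of these genes, those of the T-box in 1.14% and those of ATF/CREB in 1.62%. RefSeq windows were at hand for 8 of the 9 members, and 5 of the 8 hold the RUNX letters. The fifth is Nkg7, with the RUNX letters 83 bases and the T-box letters 14 bases before its start, whereas the windows of Gzmk, Fasl and Ifng hold none of the motifs searched. A match says only that these letters occur in the window.

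The libraries held 4722396 to 56185434 counts each in batch 1, and the range in batch 2 was 29029239 to 43880986. The library of NOR mouse 5 at 18 weeks stood apart, since 85.7% of its counts fell on a ribosomal RNA gene, which left 1182788 counts on other genes; tests and medians that rest on it are given without it as well. The INs were rich in macrophage and fibroblast RNA: the 5 macrophage markers (Adgre1, Cd68, Csf1r, Mrc1, C1qa) summed to a median of 2349 CPM (counts scaled to a common library total) and the 4 fibroblast markers to 18936. By contrast, 8 NK cell markers summed to a median of 13.7 CPM (4.21 to 71.9 over the 120 samples) and 8 T cell markers to 10.8 CPM (4.04 to 50.1). The NK cell marker with the highest median was Il2rb, with 6.25 CPM in batch 1 and 9.23 in batch 2. It encodes a receptor chain for interleukins of killer cells, so the NK cell sum weighs it most and is not a measure of NK cells alone. The CD8 T cell markers Cd8a and Cd8b1 together had a median of 0.466 CPM, and the basophil marker Mcpt8 was at 0 in most samples. In bulk RNA, fewer killer cells and less RNA of these genes per cell cannot be told apart.

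All 9 members had low levels, with medians of 0.0251 (Ifng) to 1.67 CPM (Ctsw) over the 120 samples. Prf1 had counts in all 120 libraries, whereas Gzmk and Ifng were near the lower end of detection. Levels were compared between genes as the median over the 120 samples of CPM divided by the length of the exons in kb. Gzmb had 1.15 CPM per kb, Gzma, which like Gzmb encodes a granzyme, had 1.03, Nkg7, which encodes a granule membrane protein, had 0.993, and Ctsw, which encodes the lysosomal protease cathepsin W, had 0.885. Prf1 followed with 0.643 and Ncr1, which encodes the NK cell receptor NKp46, with 0.619. Fasl, which encodes Fas ligand, stood at 0.157, Gzmk, a further granzyme, at 0.0495 and Ifng, which encodes interferon gamma, at 0.0194. The first 6 genes overlapped widely from sample to sample, so their order is not larger than the spread between samples.

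The lowest members rested on single reads. Gzmk had a median of 2 counts per library and was at 0 in 33 of the 120 libraries, with a highest count of 40. Ifng had a median of 1 count, was at 0 in 52 libraries and never exceeded 12 counts. Ifng therefore passed the filter on low counts in no edgeR fit, and in the fits on all samples of a comparison Gzmk passed it only against NOR with biopsies summed. In some fits on fewer samples, such as batch 2 of the progressors, Gzmk passed the filter as well, and its adjusted p there was 0.153 or more. The other 7 members had medians of 10 counts (Fasl) to 57 (Prf1) and were tested in every comparison.

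**Figure D1:**
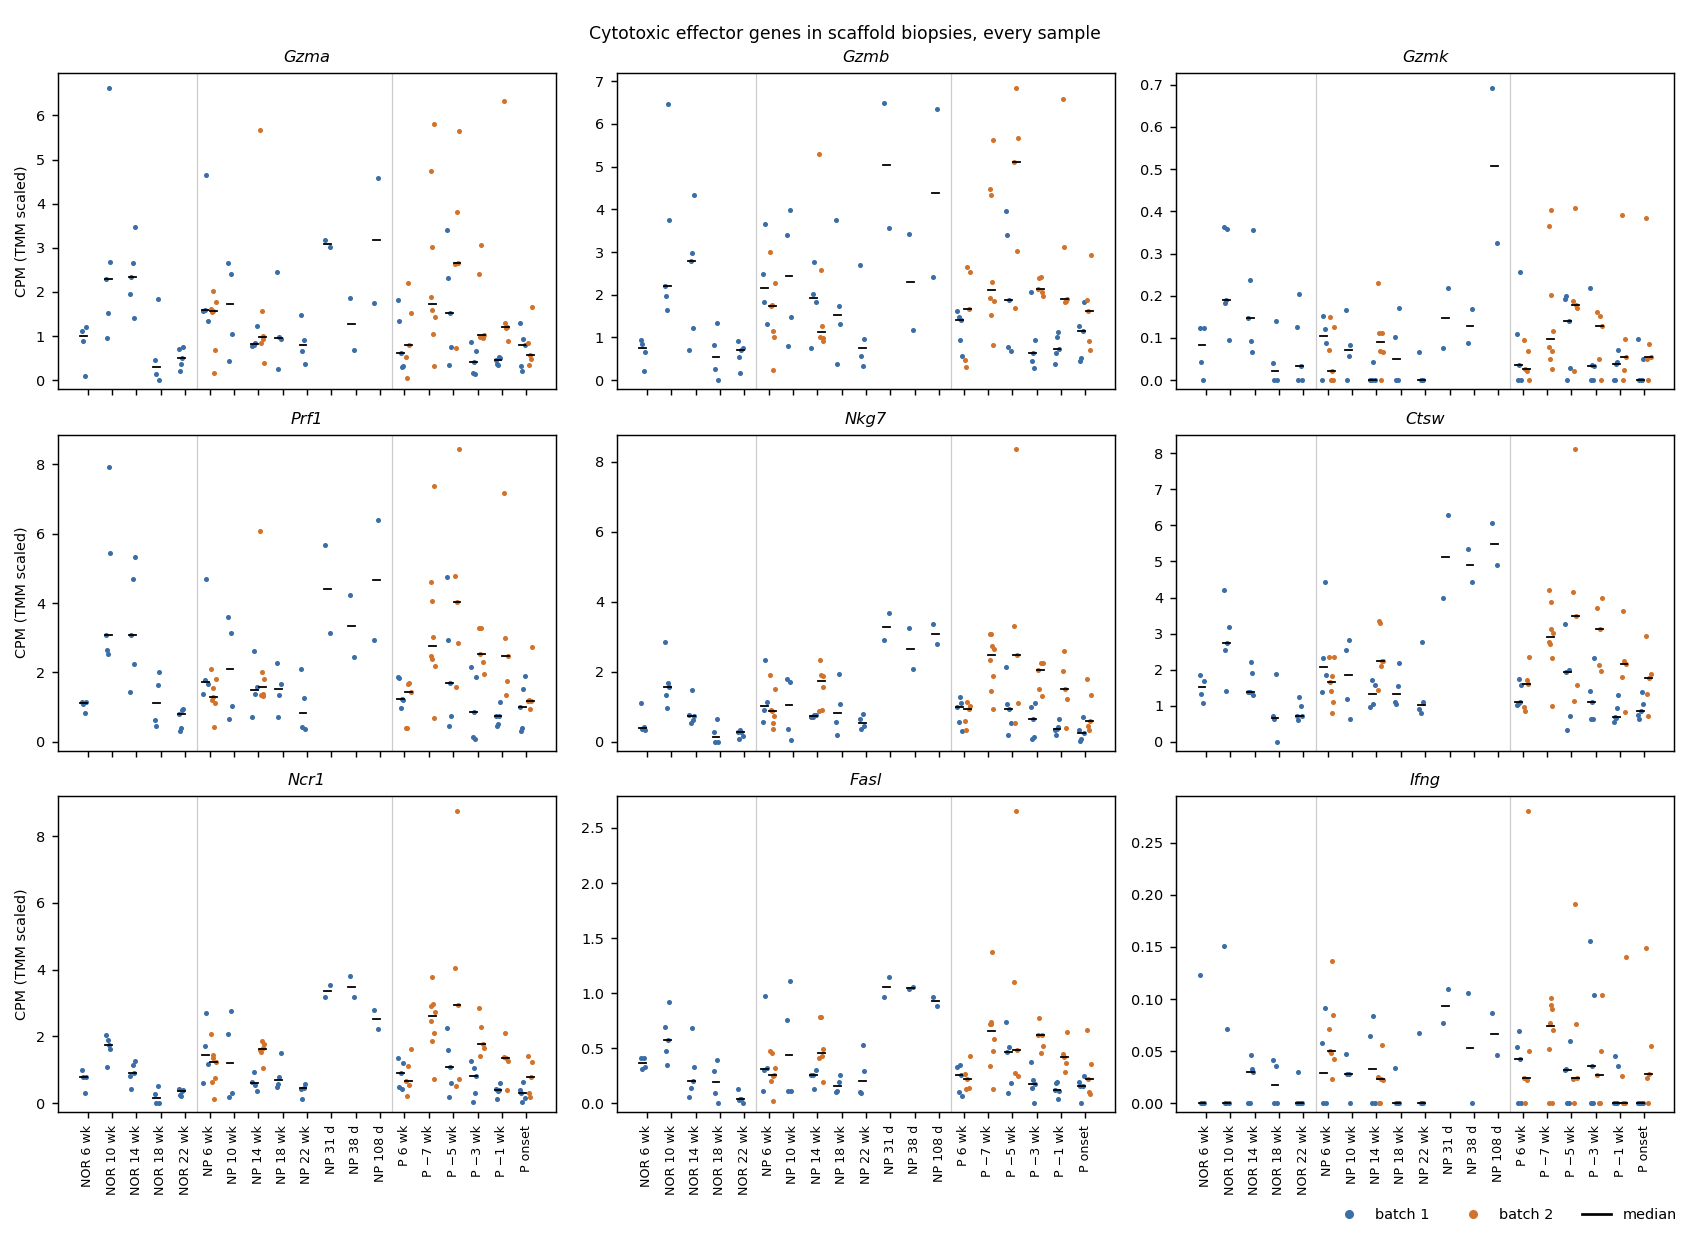
Level of each member in every biopsy (CPM with TMM-scaled library sizes, linear axes that differ between genes), by group and time, with batch 1 in blue, batch 2 in orange and medians as bars (NP, nonprogressors; P, progressors; wk, weeks; d, days after implantation). The samples of a group spread widely, the NOR points are highest at 10 and 14 weeks, and the highest point of Nkg7, Ctsw, Ncr1 and Fasl is the same −5 week sample of batch 2.

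On GRCm38, with the annotation of GENCODE M21, Gzma (chr13:113093825-113100981) and Gzmk (chr13:113171608-113225908) lie close together on the minus strand of chromosome 13, and the other members are on separate chromosomes or far apart. Gzmb is at chr14:56258838-56262260, Prf1 at chr10:61297833-61304680, Ifng at chr10:118441046-118445892, Nkg7 at chr7:43437073-43438249, Ncr1 at chr7:4337724-4345164, Ctsw at chr19:5465043-5468507 and Fasl at chr1:161780689-161788495. The span of Gzmk includes Esm1 on the opposite strand, without an overlap of Gzmk exons. Ctsw shares 9 bases with Fibp on the opposite strand, and Ifng shares 408 exon bases with Gm49751 on its own strand. Whether the counting used the strand is not given in the sources used here, so Ctsw is uncertain to that extent. Reads from the bases that Ifng shares with Gm49751 cannot be told apart by strand, so Ifng is uncertain in either case.

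NOD and NOR were compared first, to ask which of these genes separate mice at risk from mice that are not. Gzmk was lower in NOD, by 1.28 on the log2 scale, and none of the other 7 members tested passed the threshold. Summed over its batch 1 biopsies, each of the 5 NOR mice had 0.172, 0.122, 0.13, 0.166 and 0.159 CPM of Gzmk. The 4 nonprogressors had 0.0718, 0.0338, 0.0624 and 0.079 CPM, and the 5 progressors had 0.129, 0.0371, 0.02, 0.0805 and 0.0397 CPM. These 4 nonprogressors were below all NOR mice, whereas progressor 1 lay within the NOR range. The 6 nonprogressor biopsies of batch 1 labelled by days were not part of these sums. They had 0.0774 to 0.692 CPM of Gzmk (median 0.194), against 0 to 0.363 (median 0.123) in the single biopsies of NOR, and this difference, in which NOD was not lower, was not tested.

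Over these 14 mice, the fitted change of Gzmk was −1.28 (standard error 0.32, adjusted p = 0.0209, edgeR's quasi-likelihood test with Benjamini-Hochberg adjustment over 23387 genes). Of all genes tested, 8.98% passed in either direction and 5.11% were lower in NOD, against 1 of 8 members. The mice had only 3 to 27 counts of Gzmk each. The call was lost without NOR mouse 1 (adjusted p = 0.0556), NOR mouse 4 (0.0527) or NOR mouse 5 (0.0513), with a change of −1.22 to −1.26 in these fits. Without the library rich in ribosomal RNA it remained (−1.28, adjusted p = 0.0214). The other 7 members differed by −0.72 (Prf1) to −0.09 (Ncr1), with standard errors of 0.22 to 0.39. With the 6-week samples only, 6 of these 7 were above 0, from 0.30 (Ctsw, standard error 0.37) to 1.35 (Gzmb, standard error 0.45), Fasl was at −0.19, and none passed.

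Against the nonprogressors alone, with the same NOR mice as controls, Gzmk was lower by the same amount. The change was −1.28 (standard error 0.27, adjusted p = 0.0215, edgeR), where 6.26% of 22975 genes passed and 3.63% were lower in nonprogressors. It missed the threshold without NOR mouse 1 (adjusted p = 0.0521), NOR mouse 4 (0.0508) or nonprogressor 3 (0.0542) and with no filter on low counts (0.0538). It passed without the library rich in ribosomal RNA (adjusted p = 0.0221, edgeR). The remaining members ran from −0.42 (Prf1) to 0.24 (Ncr1). Their adjusted p was 0.537 or more.

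Relatives of Gzmk moved in the same comparison. Of 7 other granzyme genes, 6 were tested and 4 were lower in NOD than in NOR, namely Gzmg (−2.0, adjusted p = 0.00979), Gzme (−1.72), Gzmd (−1.71) and Gzmf (−2.0), all of a cluster expressed by activated lymphocytes; the median of the 6 was −1.71 against −0.00 over all genes. Cst7, which encodes cystatin F, an inhibitor of the cathepsins that activate granzymes, was lower by 1.40 (adjusted p = 0.00017), and of the 12 genes of granule build-up and release tested 2 were lower and none higher. Of the 6 mast cell markers, 4 (Tpsb2, Cma1, Mcpt4 and Cpa3) were lower as well, and their summed level ran from 10.6 to 156 CPM in NOR and from 3.37 to 110 in the NOD samples of batch 1. None of the 8 NK cell markers or of the 8 T cell markers passed, and the NK cell sum had a median of 10.1 CPM in NOR and 12.3 CPM in the NOD samples of batch 1. The helper T cell marker Cd4 was lower (−1.13, adjusted p = 0.0185), as were the macrophage markers C1qa (−0.50) and Csf1r (−0.26). The part of mast cells and of these other cells in the Gzmk difference was not tested.

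**Figure D2:**
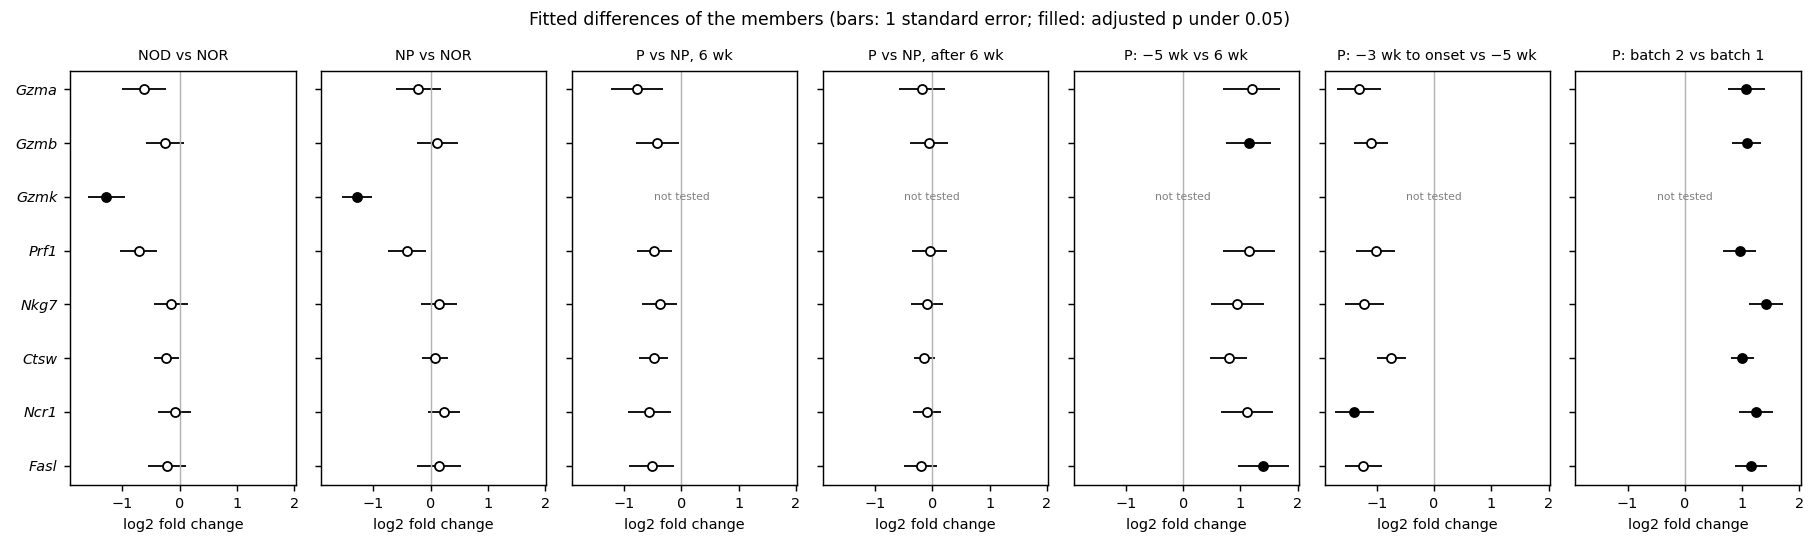
Fitted log2 fold changes of the members in 7 comparisons (points; bars, 1 standard error; filled points, adjusted p under 0.05; NP, nonprogressors; P, progressors; wk, weeks). Gzmk is the filled point in the comparisons with NOR, Gzmb and Fasl at −5 weeks against 6 weeks, Ncr1 at −3 weeks to onset against −5 weeks, and all 7 members tested in batch 2 against batch 1.

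Age was examined within NOR, in mice that do not become diabetic. The paper states that INs were first biopsied at 6 weeks of age, then weekly, each replaced by a new IN. Age therefore cannot be told apart from earlier surgery and from the time an IN was in place. The same holds for 6 weeks against later times in NOD mice. Prf1 was highest at 10 and 14 weeks, while its samples at 18 and 22 weeks overlapped. At 6 weeks its CPM was 1.15, 1.10, 0.826 and 1.16 in 4 mice, and at 10 weeks it was 3.08, 2.64, 2.52, 7.91 and 5.43. At 14 weeks the mice had 1.43, 3.09, 4.68, 2.25 and 5.31 CPM. At 18 weeks they had 0.625, 0.45, 1.62 and 2.02 CPM, the last from 2 counts in the library rich in ribosomal RNA, and at 22 weeks 0.791, 0.303, 0.409, 0.923 and 0.93. Without that library the 18-week median was 0.625 CPM, below the 22-week median of 0.791. The 10-week samples did not overlap with those of 6, 18 and 22 weeks.

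Ncr1 and Nkg7 peaked at 10 weeks. Ncr1 was 0.982, 0.793, 0.31 and 0.785 CPM at 6 weeks and 2.06, 1.07, 1.89, 1.74 and 1.62 at 10 weeks, and then 0.416, 0.243, 0.205, 0.376 and 0.399 at 22 weeks. Nkg7 had a median of 0.383 CPM at 6 weeks, 1.56 at 10 weeks, 0.742 at 14 weeks, 0.146 at 18 weeks and 0.274 at 22 weeks. Gzmb stayed high at 14 weeks, with medians of 0.749, 2.21, 2.79, 0.551 and 0.718 CPM from 6 to 22 weeks. Without the library rich in ribosomal RNA, which was at 0 for both, the 18-week medians were 0.292 CPM of Nkg7 and 0.833 CPM of Gzmb, values that were added afterwards, and their samples overlapped with those of 22 weeks.

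All 7 members tested differed between the 5 ages (adjusted p = 0.00089 for Prf1 to 0.0274 for Gzma, edgeR's quasi-likelihood F test), where 8.24% of 19628 genes did. Tests over any difference, here and in the other groups, were chosen after the values were seen. All 7 passed without the library rich in ribosomal RNA, with the mouse as a block and with DESeq2. The number of calls depended on single mice. Gzmb, Prf1 and Fasl passed without mouse 1, and Prf1, Nkg7 and Ncr1 without mouse 2. Of the 7, all but Gzma passed without mouse 3, and Prf1 and Ncr1 without mouse 5. Gzmk was tested as well in some of these fits and did not pass. Its adjusted p was 0.176 without mouse 3 and 0.232 without the library rich in ribosomal RNA (edgeR), and 0.308 with DESeq2. With the later ages averaged and set against 6 weeks, none passed (0 of 7 with edgeR or DESeq2, and 0.0357% of all genes with edgeR, while 1341 genes had an unadjusted p under 0.05), the changes running from −0.78 (Fasl) to 1.06 (Gzmb).

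Other lymphocyte genes followed the same test. Of 8 NK cell markers 5 passed, among them Klri2, Klrd1, Klre1 and Klra8, which encode lectin-like receptors of NK cells, and their sum had medians of 11.2, 23.4, 10.3, 8.09 (7.08 without the library rich in ribosomal RNA) and 6.62 CPM from 6 to 22 weeks. No T cell marker of 8 passed. Of the 6 other granzymes tested 5 passed, as did Eomes and Runx3, which encode transcription factors of killer lymphocytes. The mast cell sum, in which 4 of 6 markers passed, went another way, with medians of 27.3 CPM at 6 weeks and 107 at 22 weeks.

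In nonprogressors the members showed no such course that the tests could detect. None of 7 passed between the 5 ages, where 34.7% of 21138 genes did, and none with later ages against 6 weeks, where 24.1% did; the latter changes ran from −0.46 to −0.11. Over both batches no member had an unadjusted p under 0.05 in either test, and none passed with DESeq2. Prf1 had medians of 1.72, 2.08, 1.48, 1.51 and 0.835 CPM from 6 to 22 weeks in batch 1. Within batch 2, where the comparison was of 14 with 6 weeks, all 7 changes were above 0 (0.32 for Gzmb to 0.87 for Fasl) and none passed, with the smallest p for Ctsw (unadjusted 0.0453, adjusted 0.103 in edgeR's test). Within batch 1, later ages against 6 weeks gave −1.04 for Gzma (unadjusted p = 0.0313, adjusted p = 0.127, edgeR) and −1.08 for Ncr1 (unadjusted p = 0.042, adjusted p = 0.152). The difference between the age courses of nonprogressors and NOR was itself tested in batch 1, likewise afterwards, and passed for none of the 7 (0 of 7 with edgeR or DESeq2, with 1.43% of 20647 genes), with unadjusted p from 0.0114 (Prf1) to 0.114 (Fasl) in edgeR's F test.

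Progressors and nonprogressors were compared at 6 weeks of age, to ask whether these genes separate mice before disease. The fitted differences of all 7 members tested were below 0 and none passed the threshold. Gzma had 0.298 to 1.82 CPM (median 0.628) in progressors and 1.34 to 4.65 (median 1.58) in nonprogressors of batch 1. In batch 2, Gzma had 0.051 to 2.19 CPM (median 0.795) in progressors and 0.161 to 2.02 (median 1.57) in nonprogressors, so that the groups overlapped in both batches. The fitted differences over both batches ran from −0.78 (Gzma, standard error 0.46) to −0.38 (Nkg7, standard error 0.31).

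No gene of 19082 passed in that comparison with edgeR (0%) or with DESeq2, and 985 had an unadjusted p under 0.05 with edgeR and 1348 with DESeq2. Within batch 1 the differences of the members ran from −1.35 (Gzma) to −0.54 (Nkg7), and within batch 2 from −0.38 (Gzma) to −0.06 (Gzmb). After 6 weeks, with the biopsies of each mouse summed, the differences were −0.20 (Fasl) to −0.04 (Prf1), with standard errors of 0.19 to 0.41. None of 7 passed, with 0.0132% of 22696 genes. Over both batches, no member had an unadjusted p under 0.05 at or after 6 weeks. Within batch 1 at 6 weeks, Gzma (0.0414), Gzmb (0.0239) and Ctsw (0.0185) had one, with an adjusted p of 0.733 each in edgeR's test. With library totals free of ribosomal and 7SL RNA, Ctsw had an unadjusted p of 0.0453 at 6 weeks over both batches. After 6 weeks the differences were all below 0 within batch 1 (−0.72 to −0.42) and all above 0 within batch 2 (0.07 to 0.48), and none passed in either. The change after 6 weeks did not pass between progressors and nonprogressors for any member either (0.04 for Nkg7 to 0.93 for Gzma; no gene of 20618 passed, that is 0%, with 1585 at an unadjusted p under 0.05 and 4 passing with DESeq2).

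Within progressors, the biopsies of −5 weeks stood out among the times. At 6 weeks Gzmb had 0.306 to 2.66 CPM (median 1.44, n = 10). At −7 weeks it had 0.82 to 5.61 (median 2.11, n = 8, batch 2), and at −5 weeks 0.692 to 6.84 (median 3.21, n = 10). Its medians then were 2.01 at −3 weeks, 1.47 at −1 week and 1.21 at onset. The ranges of these times overlapped.

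From 6 weeks to −5 weeks, Gzmb rose by 1.14 (standard error 0.39, adjusted p = 0.0248) and Fasl by 1.40 (standard error 0.44, adjusted p = 0.0164) on the log2 scale (edgeR, batch as a covariate). This comparison was chosen after the values were seen, and it shares the −5 week samples with the one that follows. It called 2 of 7 members, where 25% of 21279 genes passed and 12.9% were higher. Gzma, Prf1, Nkg7, Ctsw and Ncr1 differed by 0.80 (Ctsw) to 1.19 (Gzma), with adjusted p of 0.0543 (Prf1) to 0.123 (Nkg7). With the mouse as a block, Gzma passed too (1.20, adjusted p = 0.0479).

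The changes were larger in batch 2 than in batch 1, a difference that was not tested. In batch 2 the changes of the 7 members from 6 to −5 weeks were 1.30 (Ctsw) to 2.00 (Ncr1). Prf1, Nkg7, Fasl and Ncr1 passed there, 4 of 8 members with Gzmk tested too, where 2466 of 21377 genes did. In batch 1 the changes were 0.16 (Nkg7) to 0.88 (Gzma), and none passed, where 4251 of 19596 genes did. Leaving out progressor 8, whose −5 week sample was the highest of all in Nkg7, Ctsw, Ncr1 and Fasl (8.35, 8.11, 8.76 and 2.66 CPM), took Fasl out (0.94, adjusted p = 0.13), and leaving out progressor 6 took Gzmb out (1.00, adjusted p = 0.0624). That sample of progressor 8 also had the highest NK cell sum of the series, 71.9 CPM.

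Ncr1 fell after −5 weeks. In batch 1 it was 2.25, 1.60, 0.187, 1.07 and 0.602 CPM at −5 weeks (progressors 1 to 5) and 0.392, 0.32, 0.0401, 0.642 and 0.149 at onset. In batch 2 it was 4.04, 0.521, 8.76, 2.95 and 0.729 CPM at −5 weeks (progressors 6 to 10) and 1.43, 0.32, 0.183, 0.793 and 1.23 at onset. Progressor 10 alone was higher at onset than at −5 weeks.

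With −3 weeks, −1 week and onset averaged against −5 weeks, Ncr1 changed by −1.39 (standard error 0.34, adjusted p = 0.0442, edgeR), the sole call among 7 members, where 0.385% of 21279 genes passed and 0.334% were lower. The other 6 were also below 0, from −1.31 (Gzma, standard error 0.38, adjusted p = 0.0813) to −0.74 (Ctsw, standard error 0.25, adjusted p = 0.136); the median of the 7 was −1.22 against −0.01 over all genes. With the mouse as a block none passed (Ncr1 −1.24, adjusted p = 0.0982). With DESeq2 Gzma, Gzmb, Nkg7 and Ncr1 passed, 4 of 6 members with an adjusted p, where 266 of 17605 genes did. DESeq2 gave no adjusted p for Fasl (−1.24, unadjusted p = 0.00026), so Fasl was neither called nor rejected there. Within batch 1 the change of Ncr1 was −1.36 (adjusted p = 0.143) and within batch 2 −1.43 (adjusted p = 0.171). Leaving out any of progressors 1 to 6, 8 and 9 ended the call of Ncr1, with the smallest change of −1.0 (adjusted p = 0.325) without progressor 8.

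**Figure D3:**
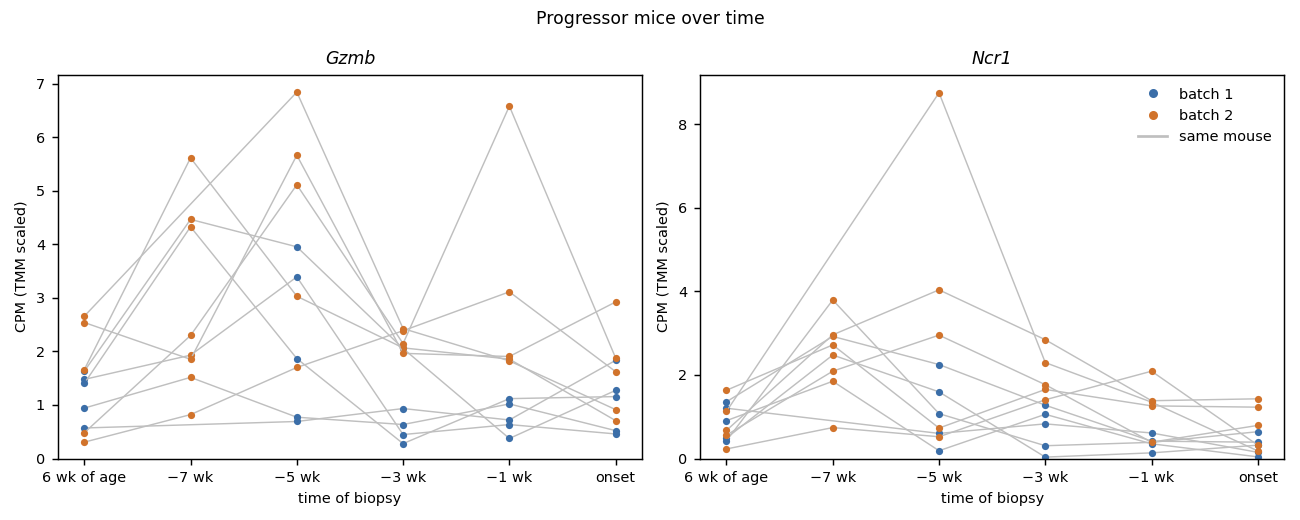
Gzmb and Ncr1 in each progressor over time (CPM, linear axes from 0; grey lines join the biopsies of a mouse; blue, batch 1; orange, batch 2). Ncr1 of progressor 8 reaches 8.76 CPM at −5 weeks, Gzmb reaches 6.84 CPM at −5 weeks and 6.58 CPM in progressor 6 at −1 week, and at onset the highest sample has 2.92 CPM of Gzmb and 1.43 CPM of Ncr1.

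Of 8 NK cell markers, Klrb1c (1.05, adjusted p = 4.68e-05) and Klre1 (1.30, adjusted p = 0.0216) rose from 6 to −5 weeks, 2 of 8 where 12.9% of all genes were higher, and Klrd1 fell afterwards (−1.43, adjusted p = 0.0417). The NK cell sum had medians of 13.3 CPM at 6 weeks, 18.6 at −5 weeks and 9.31 at onset. Trdc, which encodes the constant region of the delta chain of the T cell receptor, fell after −5 weeks as well (−1.33, adjusted p = 0.0379). Of 8 T cell markers 7 rose from 6 to −5 weeks, with Cd5 at 1.20, Cd3d at 1.92, Lck at 1.04 and Cd3g at 1.43, and none passed afterwards. The B cell markers Ms4a1 (2.51) and Cd79a (1.54) and the neutrophil markers S100a8 (1.19) and S100a9 (1.45) rose as well. All 4 fibroblast markers were lower at −5 weeks than at 6 weeks. The part of the numbers of any of these cells in the changes of the members was not tested.

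Among other granzymes, Gzmf (3.87), Gzme (2.61), Gzmg (3.35) and Gzmd (2.47) rose from 6 to −5 weeks. These were 4 of 6 tested, where 12.9% of all genes were higher. Their levels were low and uneven between mice. Gzmf was at 0 in 19 of the 74 libraries of batch 1, and at −5 weeks it ran from 0 CPM (progressor 8) to 7.51 (progressor 10). Of the 12 genes of granule build-up and release 4 rose, among them Stxbp2 and Lyst, which take part in granule release and formation. The subunits of the receptor of interferon gamma, Ifngr1 (0.24) and Ifngr2 (0.22), passed, whereas none of the 8 targets of interferon gamma tested did. For the ligand itself, Ifng, the values were too low for a test: at 6 weeks and at −5 weeks of batch 2 its median was 0.024 CPM, and at onset in batch 1 all 5 samples were at 0, which counts of this size cannot tell from a low level.

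The late times (−5 weeks to onset) against 6 weeks called none of 7, where 39.5% of 21279 genes passed. They gave changes from 0.03 (Nkg7) to 0.47 (Fasl) over both batches, −0.79 to −0.14 within batch 1 and 0.73 to 1.25 within batch 2. In batch 2 Prf1 passed (adjusted p = 0.03, edgeR), 1 of 8 members with Gzmk tested too, where 6674 of 21377 genes did. Against −7 weeks they gave −0.72 (Ncr1) to −0.18 (Gzmb), none past the threshold, where 3.89% of genes passed. From 6 weeks to −7 weeks, also chosen afterwards, the changes were 0.49 to 0.86 and none passed, where 12.5% of genes did. Within batch 2 alone, Prf1 (1.57, adjusted p = 0.0229, edgeR) and Nkg7 (1.48, adjusted p = 0.0394) passed. These were 2 of 8 members, with Gzmk tested too, where 4077 of 21377 genes passed. In these 3 comparisons no member had an unadjusted p under 0.05 over both batches, and none passed with DESeq2. Over any difference between the 6 times, Gzmb, Nkg7, Ncr1 and Fasl passed (4 of 7, where 35.6% of genes did) and none did within batch 1. With the mouse as a block Gzmb did not pass (adjusted p = 0.0758). Ncr1 passed whichever mouse was left out, and alone without progressor 1 or progressor 8.

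The batch moved with these genes. In the progressors, all 7 members tested were higher in batch 2 than in batch 1, by 0.96 (Prf1) to 1.41 (Nkg7) on the log2 scale, where 34.8% of genes were higher and 64.2% passed. The batches held different mice except at −7 weeks, so batch and mice cannot be told apart elsewhere. With the mouse as a block, where the difference rests on 4 mice with samples in both batches, it was 1.13 to 1.63 and none passed. At 6 weeks of age the batches overlapped: Gzmb had medians of 1.40 and 1.66 CPM in progressors of batch 1 and 2, and Nkg7 1.01 and 0.935.

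The members fell into sets by how they varied from sample to sample. Rank correlations were taken within each batch (74 and 46 samples) and averaged with the numbers of samples as weights, and are given as a description of samples that share mice, groups and sequencing runs. Gzma, Gzmb and Prf1 were most like each other (Spearman's rho 0.83 to 0.86 in 3 pairs). Nkg7, Ctsw, Ncr1 and Fasl formed another set (0.77 to 0.89 in 6 pairs). Between the sets the 12 pairs ran from 0.54 to 0.74.

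The genes most like Gzma, Gzmb and Prf1 were mostly members and their relatives. For Gzma they were Gzmb, Prf1 and Gzmc, and for Gzmb they were Prf1, Gzma and Gzmc (0.73 for the last). For Prf1 the third was Il2rb (0.79), which encodes a receptor chain for interleukins of killer cells. Nkg7 was closest to Eomes (0.90), Il2rb (0.90) and Ctsw (0.89), and Ctsw to Nkg7, Il2rb and Eomes. Ncr1 was closest to Eomes (0.89), Nkg7 (0.88) and Klri2 (0.87), and Fasl to Il2rb, Eomes and Ctsw (0.78 to 0.80). Gzmk reached 0.59 with Nkg7, Otulinl and Prf1, and Ifng 0.53 with Calhm6, 0.53 with Cxcl9, which encodes a chemokine induced by interferon gamma, and 0.51 with Irf1.

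**Figure D4:**
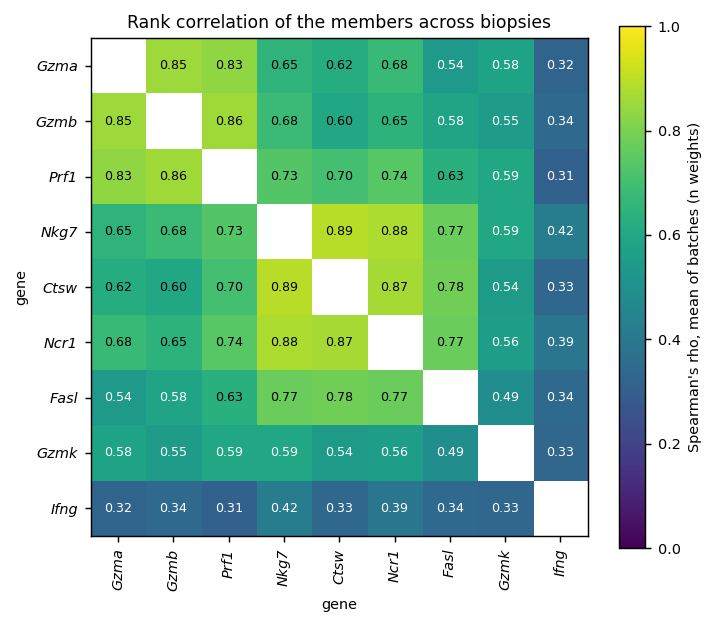
Spearman's rho between members over the biopsies, the mean of both batches weighted by 74 and 46 samples (color scale from 0 to 1). Gzma, Gzmb and Prf1 form a block of 0.83 to 0.86, Nkg7, Ctsw, Ncr1 and Fasl another of 0.77 to 0.89, and Ifng is 0.42 or less with every member.

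Some biopsies were high in Gzma, Gzmb and Prf1 relative to the other set. They were picked by these values from the biopsies that defined the sets, so they illustrate the sets and are no further evidence for them. In the −5 week sample of progressor 10, Gzma, Gzmb and Prf1 summed to 19.7 CPM and Nkg7, Ctsw, Ncr1 and Fasl to 3.67, a ratio of 5.38, the highest of all. The 14-week sample of nonprogressor 5 had 17.0 against 4.31 CPM, the −1 week sample of progressor 6 had 20.1 against 5.64, and the 10-week sample of NOR mouse 4 had 21.004 against 6.71. In these 4 samples, chosen after their values were seen, Gzmd of the neighboring granzyme cluster had 8.23 to 12.4 CPM, whereas its median was 0.434 in batch 1 and 0.366 in batch 2. A high ratio was not always joined by a high Gzmd: the 18-week sample of nonprogressor 1 had 8.47 against 2.26 CPM, the third highest ratio at 3.75, with 0.236 CPM of Gzmd. The 10-week sample of nonprogressor 4 (ratio 3.26) had 0.927 CPM of Gzmd and the 22-week sample of nonprogressor 1 (ratio 3.00) had 0.541.

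**Figure D5:**
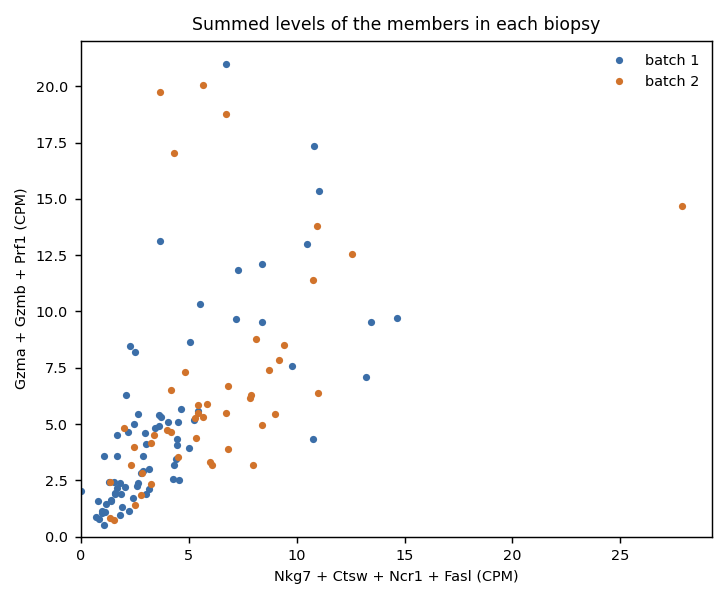
Summed CPM of Gzma, Gzmb and Prf1 against that of Nkg7, Ctsw, Ncr1 and Fasl in each of 120 biopsies (linear axes from 0; blue, batch 1; orange, batch 2). A few biopsies lie at 17.0 to 21.004 CPM of Gzma, Gzmb and Prf1 with 3.67 to 6.75 CPM of the other set. In the same range of the first sum, a nonprogressor biopsy at 108 days has 17.3 CPM with 10.8 CPM of the other set.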

How the data were processed

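Ribosomal RNA-depleted total RNA of 120 scaffold biopsies was sequenced in 2 batches. The authors deposited expected counts (estimated counts) as integers for each Ensembl gene, not normalized and in 1 file for each batch; the submitters' processing notes list cutadapt, STAR, RSEM, FastQC, MultiQC and GRCm38. Rows that name no gene held at most 2.84e-06 percent of a sample and were left out. Tests were made with edgeR 4.0.16 under R 4.3.3: low counts were removed with filterByExpr, libraries were scaled by TMM, and p-values of the quasi-likelihood fit were adjusted by Benjamini and Hochberg over every gene tested (threshold 0.05). Batch was a covariate wherever both batches entered. Biopsies were summed for each mouse in the comparisons with NOR and in progressors against nonprogressors after 6 weeks; in the fits of ages and times each biopsy entered singly, so repeated biopsies of a mouse counted as separate samples there. CPM rested on TMM-scaled totals. No pair of libraries, of 239 within groups, looked like a repeat deposit (chi-square over degrees of freedom of 14.6 or more).

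Mouse numbers come from the labels and pair the biopsies of an animal. Deviations from the group means were correlated over 2000 genes, between biopsies of 1 mouse and between biopsies of different mice. The means were −0.0217 against 0.00648 (NOR), 0.00339 against −0.00167 (nonprogressors) and −0.0174 against 0.0033 (progressors). Biopsies of 1 mouse were thus slightly more alike in nonprogressors only, and the members alone were not examined in this way. The alternatives were the mouse as block, DESeq2 1.42.0, no filter, other totals, each batch alone and each mouse left out. In simulated counts with 200 genes shifted by 1 (log2), 73.5% of them were recovered for NOD against NOR (23175 genes) and 81% for late times against 6 weeks in progressors (21015 genes). The shifted genes were drawn at random from those tested, with means that did not differ by batch or mouse. These rates therefore do not give the share that would be recovered among the members.

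The members and the gene lists were chosen with earlier results of these data known. The rule for names took all 9 members, from other lists the genes past the threshold (up to the 4 of smallest p for each list and comparison), and for likeness the 3 genes of highest mean rank correlation among 17836 with a mean of at least 0.5 CPM. Tcrg-C1, of the gamma delta T cell list, had no row. Gene positions are those of GENCODE M21 and promoters those of RefSeq. Figures were drawn with matplotlib 3.10.9.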

Additional observations from a re-analysis of the deposited data

Results flagged for a closer look

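Dixon's criterion at the 95% level was applied to 206 combinations of a gene with a group of 4 to 10 samples of a batch. In 24 of them a sample lay far from the others. That level holds for normally distributed values, so no chance rate is given for these values, which are low and often at 0. The −1 week sample of progressor 6 was high in Gzma (6.32 CPM, the next sample 1.30), Gzmb (6.58), Prf1 (7.18) and Gzmk (0.392). Its onset sample was again high in Gzmk (0.384 CPM), and the onset sample of progressor 10 in Prf1 (2.73). The 14-week sample of nonprogressor 5 of batch 2 stood out in Gzma (5.67 CPM) and Prf1 (6.08), and the 6-week sample of nonprogressor 3 of batch 1 in Gzma (4.65) and Prf1 (4.68).

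Smaller values stood out in other groups. Nonprogressor 4 had 1.22 CPM of Gzma at 14 weeks, nonprogressor 3 had 2.76 CPM of Ctsw at 22 weeks, NOR mouse 4 had the lowest Prf1 at 6 weeks (0.826), and Nkg7 was high in NOR mouse 3 at 14 weeks (1.47) and NOR mouse 1 at 6 weeks (1.11). For Gzmk, these were 0.0420 CPM in nonprogressor 3 at 14 weeks, 0.0676 in nonprogressor 1 at 22 weeks and 0.218 in progressor 1 at −3 weeks. For Ifng, they were 0.0304 CPM in NOR mouse 2 at 22 weeks, 0.123 in NOR mouse 1 at 6 weeks, 0.0337 and 0.0676 in nonprogressor 1 at 18 and 22 weeks, 0.280 in progressor 9 at 6 weeks and 0.140 in progressor 10 at −1 week. In 6 of these 9 Gzmk and Ifng groups the other samples were at 0.

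Days since the scaffold was implanted, and no age, label 6 nonprogressor samples, which therefore entered no comparison. They had higher medians than the highest sample of the 20 nonprogressor samples of batch 1 labelled by age in 4 members. The medians were 0.194 CPM of Gzmk (highest labelled by age 0.171), 3.07 of Nkg7 (2.34), 5.13 of Ctsw (4.44) and 3.17 of Ncr1 (2.76). In the same 6 samples the NK cell markers summed to 30.9 to 47.8 CPM and the T cell markers to 29.0 to 50.1, against 5.00 to 33.9 and 4.04 to 26.0 in the samples labelled by age. This difference was not tested.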

How the results depend on the processing

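Of 2039 values of members recomputed under alternatives, 1855 kept their direction and their side of the threshold, 63 no longer passed it, 35 newly passed it and 86 changed sign. With single samples in place of summed mice, Gzmk was removed by the filter and 0 members passed against NOR, for NOD and for nonprogressors. At 6 weeks only, Gzmk was again removed by the filter, and 0 of 7 members passed for NOD against NOR (403 genes in all). There Gzma (0.88), Gzmb (1.35), Prf1 (0.80), Nkg7 (0.90), Ctsw (0.30) and Ncr1 (0.70) were above 0. With no filter, 0 members passed for nonprogressors against NOR and 0 after −5 weeks. DESeq2 called 4 of the 6 members with an adjusted p after −5 weeks. With totals free of ribosomal and 7SL RNA, 4 passed from 6 to −5 weeks, and Nkg7 was −0.021 for later ages in NOR.

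With the mouse as a block, 0 members passed after −5 weeks and 0 between batches, 3 passed from 6 to −5 weeks and 3 over any time in progressors, and Nkg7 was −0.028 at late times against 6 weeks. The block changed no other call of a member; in all, it called 28 genes after −5 weeks, 2 for later ages in NOR, 126 for the age course against NOR, 0 for late times against −7 weeks, 883 for −7 against 6 weeks and 3855 between batches.

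Within batch 1, 0 passed from 6 to −5 weeks, 0 after −5 weeks and 0 over any time in progressors. Late times against 6 weeks there gave −0.37 for Gzma, −0.14 for Gzmb, −0.35 for Prf1, −0.79 for Nkg7, −0.21 for Ctsw, −0.65 for Ncr1 and −0.22 for Fasl, and the change after 6 weeks in progressors minus nonprogressors gave −0.025 for Nkg7. Within batch 2, 1 passed for late times against 6 weeks, 0 after −5 weeks, 2 for −7 weeks and 4 for −5 weeks against 6 weeks. Later ages in nonprogressors there gave 0.35 for Gzma, 0.32 for Gzmb, 0.76 for Prf1, 0.69 for Nkg7, 0.58 for Ctsw, 0.54 for Ncr1 and 0.87 for Fasl. Progressors against nonprogressors after 6 weeks gave 0.15 for Gzma, 0.48 for Gzmb, 0.31 for Prf1, 0.21 for Nkg7, 0.074 for Ctsw, 0.21 for Ncr1 and 0.10 for Fasl there. The cause of these changes was not tested.

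With each mouse left out in turn, the members called were 0 to 1 for NOD and 0 to 1 for nonprogressors against NOR, 2 to 7 over the ages of NOR, 0 to 4 after −5 weeks, 1 to 6 from 6 to −5 weeks and 1 to 6 over any time in progressors. Values that changed sign ran, for NOD against NOR, from −0.35 to 0.0025 for Nkg7; for nonprogressors against NOR, from −0.53 to 0.057 for Gzma, −0.12 to 0.32 for Gzmb, −0.23 to 0.34 for Nkg7, −0.23 to 0.18 for Ctsw, −0.15 to 0.39 for Ncr1, −0.44 to 0.37 for Fasl; for later ages in NOR, from −0.22 to 0.85 for Gzma, −0.37 to 0.54 for Nkg7, −0.41 to 0.070 for Ctsw, and in nonprogressors from −0.63 to 0.058 for Gzmb, −0.59 to 0.15 for Prf1, −0.20 to 0.088 for Fasl. For progressors against nonprogressors after 6 weeks they ran from −0.31 to 0.24 for Gzma, −0.16 to 0.19 for Gzmb, −0.16 to 0.22 for Prf1, −0.26 to 0.041 for Nkg7, −0.26 to 0.064 for Ncr1, −0.34 to 0.010 for Fasl, for late times against 6 weeks from −0.050 to 0.41 for Gzma, −0.15 to 0.32 for Nkg7, −0.091 to 0.23 for Ncr1, against −7 weeks from −0.35 to 0.13 for Gzmb, and for the change after 6 weeks from −0.15 to 0.28 for Nkg7.

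Over all genes, DESeq2 called 2466 for nonprogressors against NOR, 39 for later ages and 3982 over the ages of NOR, 235 for progressors against nonprogressors after 6 weeks, 266 after −5 weeks, 4 for the change after 6 weeks and 1028 for the age course against NOR. Without the library rich in ribosomal RNA, 12 genes passed for later ages and 2601 over the ages of NOR, and 498 for the age course against NOR. With no filter these were 12 for later ages in NOR and 188 for the age course, and 45 genes passed after −5 weeks, 0 for progressors against nonprogressors after 6 weeks (9 with single samples) and 1 for the change after 6 weeks. Batch 1 alone gave 2712 genes for later ages and 2672 over the ages of nonprogressors, 5317 for late times against 6 weeks, 3675 over any time in progressors and 0 for progressors against nonprogressors after 6 weeks. Batch 2 alone gave 1352 for late times against −7 weeks, 2 after −5 weeks, 4077 for −7 weeks and 2466 for −5 weeks against 6 weeks. With each mouse left out, the genes called over the ages of NOR ran from 481 to 1488, against 1617 with all mice, and after −5 weeks from 3 to 827, against 82. With totals as deposited, 229 of 234 group means of CPM moved by less than the spread between samples. Gzmk and Ifng, at medians of 2 counts and 1 count, limit what depth allows: most differences between single biopsies in them rest on a few counts.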

Other observations

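In the 6 nonprogressor samples whose labels give days and no age, Prf1 was 3.12 and 5.69 CPM at 31 days, 2.45 and 4.24 at 38 days, and 2.93 and 6.40 at 108 days. Fasl, the Fas ligand gene, ran from 0.881 to 1.15 CPM in these 6 samples and from 0.0935 to 1.11 in the 20 samples of batch 1 labelled by age. The CD8 T cell markers summed to 0.58 to 4.79 CPM in the former and to 0.135 to 1.12 in the latter. The days were not turned into ages: all mice received their first INs at the same age, but INs were replaced through the study, and the labels do not say which implantation these days count from.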
